A study of Rattus norvegicus with 2 samples.

Results

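A set of 38 genes of DNA replication and S phase was followed in cultured rat heart muscle cells given lipopolysaccharide (LPS), a bacterial outer membrane component that activates Toll-like receptor 4. The genes were listed by name for their roles, with earlier results of these data known, and each was read from the array row that carried its symbol alone. Rows were found for 37 of the 38 genes, among 22093 genes measured in this way, and all 37 lay above the intensity floor of 49.3 that 14420 genes reached on at least 1 array. The exception was *Dut*, which encodes the enzyme that breaks down dUTP. Its row also carried the symbol of a *Dut* pseudogene, so its level was not used here. The genes fall into the loading and assembly of the replicative helicase (15 genes), polymerases, clamp and fork proteins (14 genes), nucleotide supply (5 genes with *Dut*) and control of the step from G1 to S phase (4 genes).

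The cells were primary cardiomyocytes from neonatal SD rats, kept in culture for several days. The LPS group received 100 ng/mL and the control group received vehicle, and RNA was taken from each after 24 h. Each group was hybridised to 1 Affymetrix whole-transcript array, so there is no spread between samples, no test was run, and every difference describes these 2 arrays only. The sources used here do not say if the RNA on an array was pooled from more than 1 culture. The values are the authors' RMA intensities on a linear scale, with a median of 49.3 on both arrays. A difference is the log2 intensity with LPS minus that with vehicle, or a fold, and 2-fold is the size at which a gene is counted. Across the 14420 genes, 45.9% had exactly the same value on both arrays. Why so many values are identical is not known, so an identical value is given as deposited and does not show that a transcript did not differ. Different genes are read by different probes, so no gene's transcript level is ranked against another's, and intensities are only placed against the floor or summed over a list of markers on each array.

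Replication begins when the origin recognition complex, Cdc6 and Cdt1 load the MCM2-7 ring onto DNA in G1 phase. In S phase, Cdc45 and the GINS complex turn this ring into the moving helicase, primase and polymerase alpha start each strand, and polymerases delta and epsilon extend it on the sliding clamp PCNA. Most genes of this machinery are transcribed shortly before S phase under E2F transcription factors, which the retinoblastoma family holds back in resting cells. Rat cardiomyocytes leave the cell cycle around and soon after birth, and non-muscle cells in such cultures can go on dividing.

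Replication genes were lower on the LPS array almost throughout. Of the 37 genes, 36 were lower, 1 had identical values and none was higher, while 31.7% of all genes were lower, 45.9% identical and 22.4% higher. At least 2-fold lower were 9 of the 37, against 2.63% of all genes above the floor, and none was at least 2-fold higher, against 3.69% of all genes. The median log2 difference was -0.75, and that of all genes was 0. A further 17 genes lay between 1.5-fold and 2-fold lower, so that 26 of 37 were at least 1.5-fold lower, against 5.67% of all genes. At least 3-fold lower were 4, against 0.784% of all genes, namely *Tk1*, *Mcm5*, *Mcm6* and *Cdc6*. In the ranking of all genes by their difference, 22 of the 37 stood among the lowest 5% and 31 among the lowest 10%. RNA of the whole culture was measured, so fewer cycling cells and less RNA per cycling cell cannot be told apart.

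**Figure D1:**
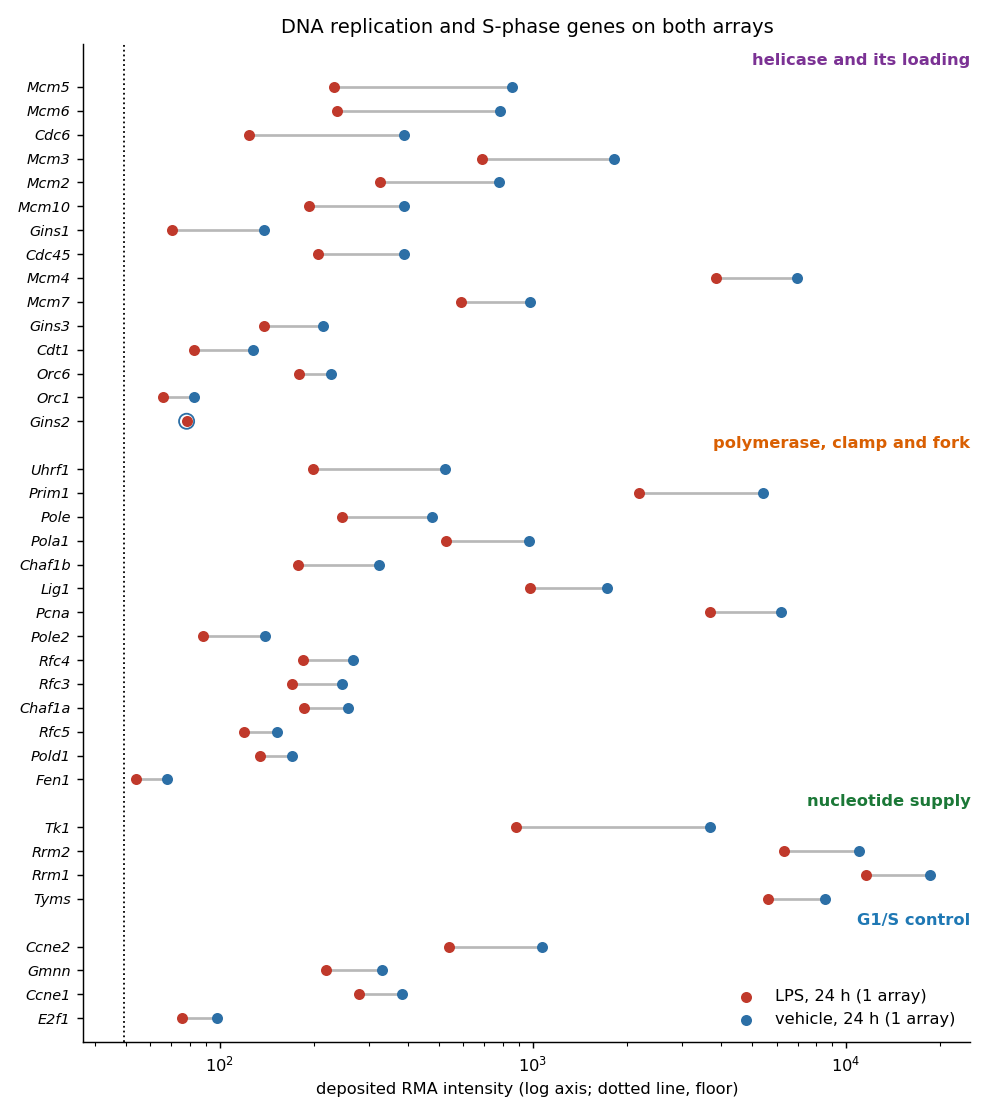
Deposited RMA intensity of 37 replication genes (log axis) on the LPS array (red) and the vehicle array (blue), grouped by role and sorted by difference, with 1 array for each group. The LPS value lies left of the vehicle value for 36 genes, and the 2 values of Gins2 coincide.

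The 6 subunits of the MCM2-7 helicase, the ring that unwinds DNA, were all lower with LPS, but by unequal amounts. *Mcm5* (Entrez 291885) had an intensity of 231 with LPS and 856 with vehicle, 3.71-fold lower. *Mcm6* (Entrez 29685) was at 237 with LPS and 782 with vehicle, 3.30-fold lower. *Mcm3* stood at 686 with LPS, against 1819 with vehicle, and *Mcm2* at 325 with LPS, against 780.3 with vehicle. These differences were 2.65-fold and 2.40-fold, so 4 of the 6 subunits were at least 2-fold lower, against 2.63% of all genes above the floor. *Mcm4* was 1.82-fold lower, at 3842 with LPS and 6978 with vehicle, and *Mcm7* 1.67-fold lower, at 587 with LPS and 979 with vehicle. Log2 differences within the ring thus ran from -1.89 for *Mcm5* to -0.74 for *Mcm7*, a range of 1.15. Both rows of the *Mcm4* pseudogene *Mcm4-ps1* were lower as well, at -0.63 and -0.72, and how far its transcript and that of *Mcm4* share probe signal was not tested.

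The promoters of these subunits are shown because the genes encode 1 ring and were all lower. The sequences are from RefSeq (build GRCr8) and run from 250 bases before the annotated start to 25 bases after it, 5′ to 3′ on the gene's strand. Capitals mark the letters of an E2F motif, taken as TTTCCCGC, TTTGGCGC, TTTCGCGC or TTTGCCGC on either strand. *Tk1*, the gene with the largest difference in the set, is shown for contrast, since none of these letters occur in its window.
Mcm5 (chr19:13488563-13488837, plus strand): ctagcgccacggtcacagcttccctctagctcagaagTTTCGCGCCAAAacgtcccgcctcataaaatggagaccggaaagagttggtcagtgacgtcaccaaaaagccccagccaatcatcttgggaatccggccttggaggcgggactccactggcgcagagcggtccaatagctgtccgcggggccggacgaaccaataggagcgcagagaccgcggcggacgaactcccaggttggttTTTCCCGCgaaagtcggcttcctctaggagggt
Mcm6 (chr13:42404328-42404602, minus strand): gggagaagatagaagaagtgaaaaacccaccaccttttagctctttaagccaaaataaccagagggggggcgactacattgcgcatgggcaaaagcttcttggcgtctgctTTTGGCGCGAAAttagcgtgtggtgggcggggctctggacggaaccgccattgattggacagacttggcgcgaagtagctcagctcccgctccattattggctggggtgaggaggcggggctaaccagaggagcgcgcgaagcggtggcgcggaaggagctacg
Mcm3 (chr9:30733722-30733996, minus strand): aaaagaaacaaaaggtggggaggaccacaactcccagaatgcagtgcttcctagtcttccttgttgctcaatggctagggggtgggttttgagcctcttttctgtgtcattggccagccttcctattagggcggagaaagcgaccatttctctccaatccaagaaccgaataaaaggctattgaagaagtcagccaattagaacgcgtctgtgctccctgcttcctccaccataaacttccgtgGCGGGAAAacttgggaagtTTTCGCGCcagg
Mcm2 (chr4:122918070-122918344, minus strand): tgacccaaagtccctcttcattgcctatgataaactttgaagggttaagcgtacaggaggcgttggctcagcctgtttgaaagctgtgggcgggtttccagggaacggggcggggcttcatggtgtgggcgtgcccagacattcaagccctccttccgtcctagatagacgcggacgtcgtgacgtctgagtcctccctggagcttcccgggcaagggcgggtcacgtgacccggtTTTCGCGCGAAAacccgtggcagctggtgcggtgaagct
Mcm7 (chr12:22163154-22163428, minus strand): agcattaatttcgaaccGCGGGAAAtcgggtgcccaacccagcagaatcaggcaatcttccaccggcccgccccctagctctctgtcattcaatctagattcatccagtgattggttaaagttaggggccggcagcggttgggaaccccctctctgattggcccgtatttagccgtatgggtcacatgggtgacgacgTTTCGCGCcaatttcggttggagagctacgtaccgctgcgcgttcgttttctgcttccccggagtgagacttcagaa
Tk1 (chr10:103544753-103545027, minus strand): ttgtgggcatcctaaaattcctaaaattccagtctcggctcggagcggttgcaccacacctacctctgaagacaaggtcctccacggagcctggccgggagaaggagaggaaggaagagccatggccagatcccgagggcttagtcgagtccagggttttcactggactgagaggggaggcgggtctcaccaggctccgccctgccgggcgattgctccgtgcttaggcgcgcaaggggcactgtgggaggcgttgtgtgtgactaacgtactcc

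Overlapping E2F matches on opposite strands stand at positions -14 to -3 of *Mcm2*, -139 to -128 of *Mcm6* and -213 to -202 of *Mcm5*, counted from the annotated start with no position 0. *Mcm5* has a further match directly before the start, at -8 to -1. The matches of *Mcm3* are at -6 to 2 and 14 to 21, and those of *Mcm7* at -233 to -226 and -52 to -45. A match describes the letters in the window and is not evidence of a bound factor. The lack of these exact letters, as in *Tk1*, does not show that a gene has no E2F site.

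Of the 38 genes, 32 had RefSeq promoter windows of 300 bases, 35 windows in all, and 16 of the 32 held E2F letters in at least 1 window. Among all 27457 genes with a window the share was 2.37%, and 2.14% of all 33469 windows held them. There were 26 matches, overlapping ones counted separately, and in 13 of the 16 genes at least 1 began within 60 bases of the start. *Uhrf1* had 3 windows, and its matches lay in 1 of them. Motifs known from late cell cycle genes were counted in the same windows. The letters TTTGAA or TTCGAA, a core of the cell cycle homology region (CHR), stood in 7 of the 32 genes on either strand, against 21% of all genes, and in 13 of 19 mitosis genes with a window. E2F letters stood in 1 of those 19. CCAAT, which the factor NF-Y binds, was found in 20 of the 32 replication genes and 39.6% of all genes.

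**Figure D2:**
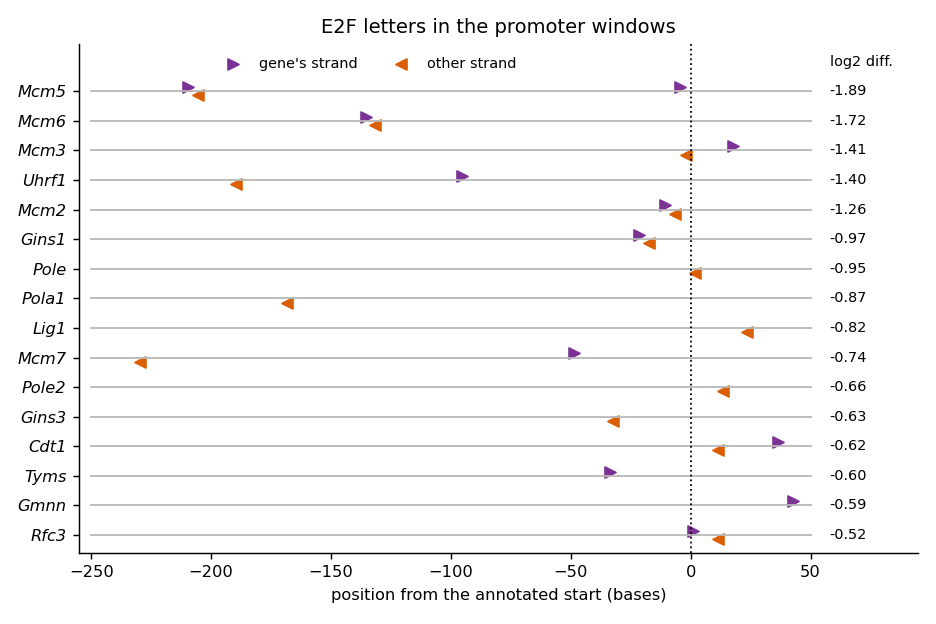
Positions of E2F letters in the promoter windows of 16 replication genes, in bases from the annotated start (dotted line), with arrows for the strand and the log2 difference, LPS minus vehicle, at the right. Genes run from Mcm5 at -1.89 to Rfc3 at -0.52, and 18 of the 26 matches begin within 60 bases of the start.

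Genes that load the helicase were lower by varying amounts. *Cdc6*, which loads MCM2-7 together with Cdt1, was at 124 with LPS and 388 with vehicle, 3.13-fold lower. *Cdt1* was at 82.5 with LPS and 127 with vehicle, 1.54-fold lower. *Mcm10*, which helps to activate the loaded helicase, was 2.02-fold lower, at 192 with LPS and 388 with vehicle, just past the 2-fold size. The LPS values of *Cdc6* and *Mcm10* lay under 236, the 75th percentile of row means. With all values under 236 raised to that level, they were 1.65-fold and 1.64-fold lower and no longer counted, and *Cdt1* was equal on both arrays. *Orc1*, the cell cycle regulated subunit of the origin recognition complex, was 1.25-fold lower, at 65.9 with LPS and 82.4 with vehicle. *Orc6* was 1.26-fold lower, at 179 with LPS and 227 with vehicle. With low values raised, *Orc1* and *Orc6* were each equal on both arrays. The other subunits of that complex, *Orc2* to *Orc5*, had log2 differences between -0.0049 and 0.094, and *Orc2* and *Orc5* were identical.

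Subunits that complete the helicase were mostly lower by less than 2-fold. *Cdc45* was at 206 with LPS and 388 with vehicle, 1.88-fold lower. In the GINS complex, *Gins1* was 1.95-fold lower, at 70.6 with LPS and 138 with vehicle, and *Gins3* 1.55-fold, at 138 with LPS and 213 with vehicle. *Gins2* had the same value, 78.3, on both arrays and was the only gene of the set that was not lower. The partner *Gins4*, outside the set, was 1.52-fold lower, at 164 with LPS and 250.4 with vehicle. All vehicle values of the *Gins1*, *Gins2* and *Gins3* rows lay under 236, so each was equal on both arrays once low values were raised. In that setting *Gins4* was 1.06-fold and *Cdc45* 1.64-fold lower. Over the 15 helicase genes, 14 were lower, and the median log2 difference was -0.91. Of the 15, 6 were at least 2-fold lower, against 2.63% of all genes above the floor.

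Primase and polymerase alpha, which start each new strand, had the lowest median log2 difference of the 3 polymerase complexes, over 4 subunits each. It was -0.94, against -0.57 for epsilon and -0.20 for delta. Levels were unlike, as *Pold1*, *Pold4* and *Pole2* lay under 236 on both arrays and no subunit of primase and polymerase alpha did. *Prim1* (Entrez 246327), the catalytic primase subunit, was at 2187 with LPS and 5417 with vehicle, 2.48-fold lower. *Pola1*, the catalytic subunit of polymerase alpha, was 1.83-fold lower, at 529 with LPS and 969.6 with vehicle. Their partners *Prim2* and *Pola2* were 2.02-fold and 1.39-fold lower, so all 4 subunits lay in the same direction. *Pole*, the catalytic subunit of leading-strand polymerase epsilon, was at 246 with LPS and 475 with vehicle, 1.94-fold lower. *Pole2*, its B subunit, was 1.58-fold lower, at 88.2 with LPS and 139 with vehicle, and with low values raised it was equal on both arrays. The small subunit *Pole3* was 1.41-fold lower and *Pole4* identical. *Pold1*, the catalytic subunit of lagging-strand polymerase delta, was 1.27-fold lower, at 134 with LPS and 169.6 with vehicle. Within that enzyme *Pold2* was 1.80-fold lower, *Pold3* 1.04-fold, and *Pold4* was identical.

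The sliding clamp and its loader were also lower. *Pcna* (Entrez 25737), the clamp that holds polymerases on DNA, was at 3681 with LPS and 6185 with vehicle, 1.68-fold lower. Of the loader, replication factor C, *Rfc4* was 1.44-fold lower, at 185 with LPS and 266 with vehicle, and *Rfc3* 1.44-fold, at 170.4 with LPS and 245 with vehicle. *Rfc5* was 1.27-fold lower, at 119.5 with LPS and 152 with vehicle. The large subunit *Rfc1*, outside the set, had identical values and *Rfc2* was 1.23-fold lower, so no clamp loader subunit reached 1.5-fold. With low values raised, *Rfc4* was 1.13-fold and *Rfc3* 1.04-fold lower, and *Rfc5* was equal on both arrays. *Lig1*, the ligase that seals Okazaki fragments, was 1.76-fold lower, at 981 with LPS and 1730.2 with vehicle. *Fen1*, the nuclease that trims those fragments, was 1.26-fold lower, at 53.9 with LPS and 67.9 with vehicle, both close to the floor.

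Chromatin genes that act at the fork included another of the larger differences. *Uhrf1*, which brings the maintenance DNA methyltransferase to newly copied DNA, was at 198 with LPS and 525 with vehicle, 2.65-fold lower. That methyltransferase, *Dnmt1*, was 2.34-fold lower, at 1628 with LPS and 3815 with vehicle. *Chaf1b* and *Chaf1a* encode subunits of CAF-1, which places histones on new DNA. *Chaf1b* was at 178 with LPS and 321 with vehicle, 1.81-fold lower. *Chaf1a* was 1.38-fold lower, at 186 with LPS and 257 with vehicle. With low values raised, *Chaf1b* was 1.36-fold, *Chaf1a* 1.09-fold and *Uhrf1* 2.22-fold lower. *Rbbp4*, the CAF-1 subunit shared with many other chromatin complexes, was 1.04-fold lower. Over the 14 polymerase, clamp and fork genes, all were lower, 2 at least 2-fold, against 2.63% of all genes above the floor. Their median was -0.70. The median was -0.31 with low values raised, where *Rfc5*, *Fen1*, *Pold1* and *Pole2* were equal on both arrays.

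**Figure D3:**
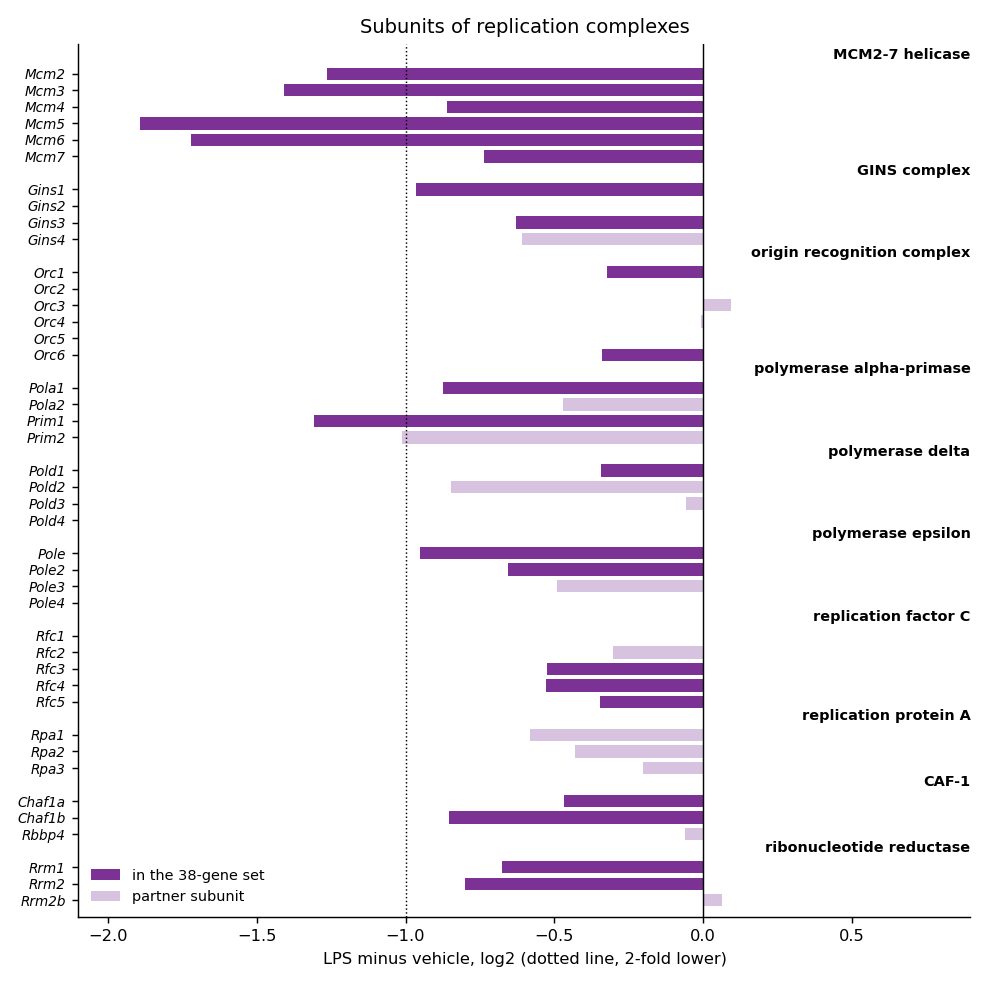
Log2 difference, LPS minus vehicle, of each subunit of 10 replication complexes, with genes of the set in dark and partner subunits in light bars, 1 array for each group. Mcm5 at -1.89 has the longest bar, and Gins2, Orc2, Orc5, Pold4, Pole4 and Rfc1 have none because their values were identical.

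Nucleotide supply held the largest difference of the set. *Tk1* (Entrez 24834), the cytosolic thymidine kinase that salvages thymidine in S phase, was at 883 with LPS and 3667 with vehicle, 4.15-fold lower. In the ranking of all 14420 genes by their difference it was number 53 from the lowest, and *Mcm5* was number 63. *Rrm2*, the S-phase subunit of ribonucleotide reductase, which makes deoxyribonucleotides, was at 6333 with LPS and 11022 with vehicle, 1.74-fold lower. *Rrm1*, the large subunit, was 1.60-fold lower, at 11612 with LPS and 18563 with vehicle. *Rrm2b*, the alternative small subunit that serves resting and damaged cells, was 1.05-fold higher, at 660.3 with LPS and 631 with vehicle. *Tyms*, which makes thymidylate, was 1.52-fold lower, at 5636 with LPS and 8553 with vehicle. All 4 measured genes of this group were lower, with a median of -0.74 and a mean of -1.03. Of the 4, 1 was at least 2-fold lower, against 2.63% of all genes above the floor.

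Genes that control entry into S phase were lower by less than 2-fold. *Ccne2*, which encodes cyclin E2, a partner of CDK2 at the G1/S step, was at 539 with LPS and 1067 with vehicle, 1.98-fold lower and just short of the 2-fold size. *Ccne1*, for cyclin E1, was 1.37-fold lower, at 279 with LPS and 382 with vehicle. *Gmnn* encodes geminin, which binds Cdt1 and prevents origins from being loaded again. It was 1.51-fold lower, at 219 with LPS and 330.2 with vehicle. *E2f1*, a transcription factor that activates replication genes, was 1.30-fold lower, at 75.6 with LPS and 98.1 with vehicle, both under 2 times the floor. The 4 genes had a median of -0.52.

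**Figure D4:**
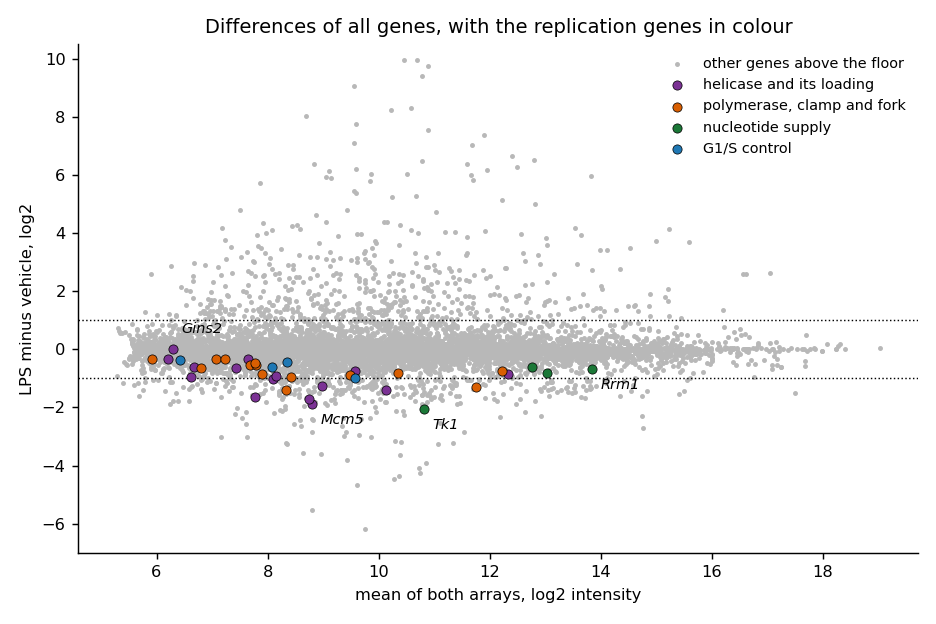
Log2 difference, LPS minus vehicle, against the mean log2 intensity of both arrays for 14420 genes above the floor (grey), with 37 replication genes coloured by role and dotted lines at 2-fold. The replication genes lie between -2.05 (Tk1) and 0 (Gins2).

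Further replication genes outside the set were also mostly lower. In 4 lists of such genes, 75 of 80 were above the floor, and 55 of these were lower, 15 identical and 5 higher. At least 2-fold lower were 9 of the 75, against 2.63% of all genes above the floor. None was at least 2-fold higher, and the median was -0.30. *Pclaf*, whose product binds PCNA, was 2.66-fold lower, at 462 with LPS and 1227 with vehicle. *Wdhd1*, which tethers polymerase alpha to the helicase, was 2.20-fold lower, and *Ticrr* and *Dbf4*, both needed to fire origins, 2.17-fold and 2.08-fold. With low values raised, *Ticrr* was 1.99-fold lower, and 7 of the 75 were at least 2-fold lower. *Top2a*, which untangles copied DNA, was 2.07-fold lower and *Hells*, a chromatin remodeller, 2.28-fold. *Top1* lay the other way, at 0.085, and *Kmt5a* at 0.26. Of 23 other genes of nucleotide supply, none differed 2-fold and 7 were identical, including the purine synthesis gene *Paics*. *Dctd*, which supplies deoxyuridylate to thymidylate synthase, was 1.74-fold lower.

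Cell cycle regulators outside the set lay in both directions. *Ccna2*, for the S-phase cyclin A2, was at 2387 with LPS and 7774 with vehicle, 3.26-fold lower. *Ccnd1*, for the G1 cyclin D1, was 2.97-fold lower, at 1089 with LPS and 3231 with vehicle, while *Ccnd2* had identical values of 27764. *Dtl*, the adaptor through which Cdt1 is destroyed in S phase, was 2.89-fold lower. These were the 3 of 22 G1/S cyclin, kinase and inhibitor genes at least 2-fold lower, against 2.63% of all genes above the floor. None of the 22 was at least 2-fold higher. Of all 22, 13 were lower, 6 identical and 3 higher. The 7 CDK inhibitor genes among them, given together after their values were seen, were divided. *Cdkn1a*, which encodes p21, was 1.28-fold higher, at 14522 with LPS and 11316 with vehicle, *Cdkn1b*, for p27, 1.17-fold, and *Cdkn2d* 1.01-fold, though its log2 difference of 0.011 was -0.00072 after a loess curve of difference against level was subtracted. *Cdkn2c* was 1.71-fold lower, at 169.9 with LPS and 291 with vehicle, and 1.23-fold lower with low values raised. *Cdkn2b* was 1.10-fold lower, and *Cdkn1c* and *Cdkn2a* were identical. Of 18 E2F, retinoblastoma and DREAM complex genes, 12 were lower, 4 identical and 2 higher. *Mybl2*, which activates late cell cycle genes, was 3.05-fold lower, *Rbl1*, for p107, 2.33-fold and the repressor gene *E2f8* 2.12-fold. *Rb1* and *Rbl2*, for the retinoblastoma protein and p130, were the 2 that were higher, at 0.16 and 0.40.

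Checkpoint and repair genes of S phase were lower in 15 of 18 cases, and none was higher. Of the 18, 5 were at least 2-fold lower, against 2.63% of all genes above the floor. *Fancd2*, of the Fanconi anaemia pathway, was 2.36-fold lower, the nuclease gene *Exo1* 2.16-fold, and *Chek1*, a checkpoint kinase, 2.15-fold. With low values raised, *Exo1* was 1.03-fold and *Bard1*, named after its value was seen, 1.63-fold lower, and 3 of the 18 were at least 2-fold lower. Of 14 targets of p53, which induces p21 after DNA damage, 7 were higher, 6 lower and 1 identical, and none differed 2-fold. *Tp53inp1* was 1.55-fold and *Mdm2* 1.53-fold higher, while *Plk2* was 1.38-fold lower. Mitosis genes had a larger difference than the replication genes, with 21 of 21 lower and a median of -1.42, against -0.75 for the latter. Of the 21, 19 were at least 2-fold lower, against 2.63% of all genes above the floor. *Kif23*, a motor of the dividing cell's midzone, was 4.01-fold lower, and *Mki67*, which marks cycling cells, 2.54-fold, at 6652 with LPS and 16908 with vehicle. No test of the difference between the lists was run.

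**Figure D5:**
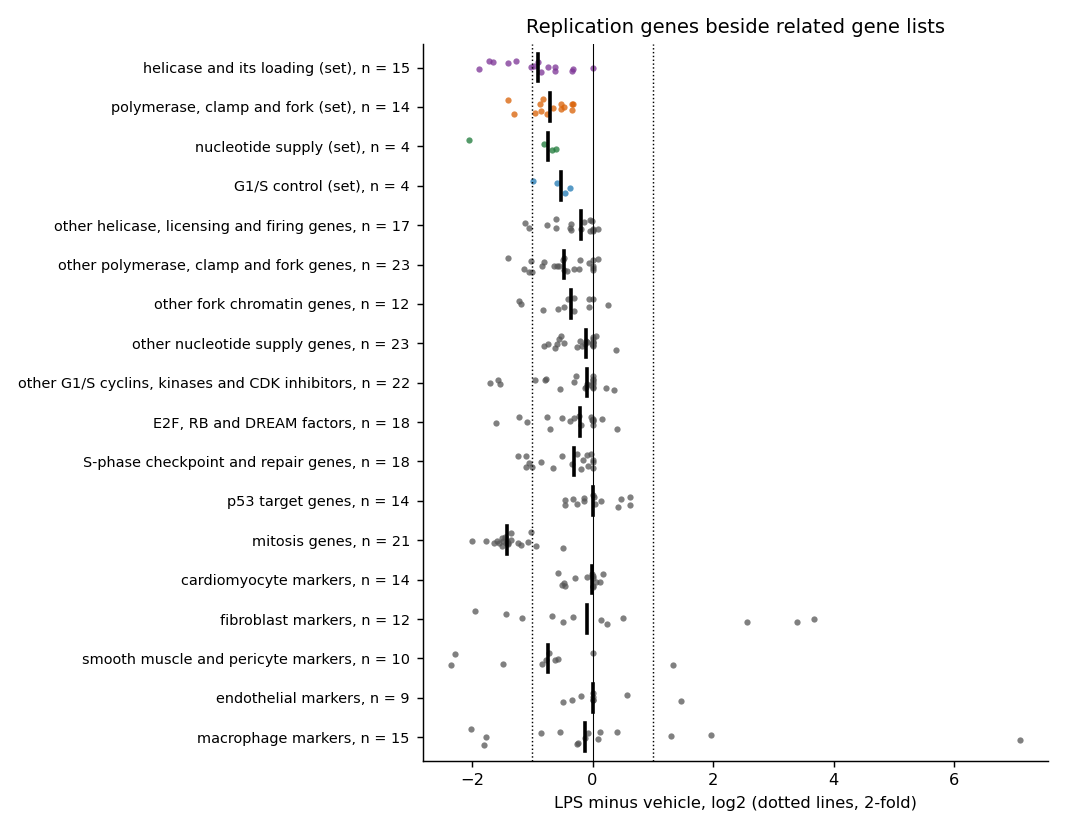
Log2 difference, LPS minus vehicle, of each gene above the floor in the 4 role groups of the set (coloured) and in 14 other lists (grey), with black bars at the medians and dotted lines at 2-fold. The set's medians lie between -0.91 and -0.52, and mitosis genes lie lowest at -1.42.

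Markers of the cells in the culture moved in several directions beside these differences. For comparison, 31.7% of all genes above the floor were lower, 45.9% identical and 22.4% higher. At least 2-fold lower were 2.63% of all genes, and at least 2-fold higher 3.69%. Of 14 cardiomyocyte markers, 7 were lower, 4 identical and 3 higher, and none differed 2-fold. *Tnnt2* was far above the floor, at 87939.9 with LPS and 84362 with vehicle, and *Actc1* was 1.49-fold and *Actn2* 1.42-fold lower. *Nppa* was 1.13-fold higher, at 345393 with LPS and 305021 with vehicle. The atrial marker *Myl7* was nearer the floor, at 122 with LPS and 169.5 with vehicle. The summed intensity of these 14 markers was 1226273 with LPS and 1324463 with vehicle. Of 10 smooth muscle and pericyte markers, 8 were lower, 3 at least 2-fold, 1 identical and 1 at least 2-fold higher, with sums of 215158 with LPS and 481433 with vehicle. Those 3 were *Smtn*, 5.09-fold lower, *Tagln*, 4.88-fold lower, and *Acta2*, 2.81-fold lower. The higher marker, *Rgs5*, was at 367 with LPS and 146 with vehicle. Its log2 difference was 0.63 with low values raised, under the 2-fold size. Of 12 fibroblast markers, 6 were lower and 6 higher, 3 at least 2-fold in each direction, with sums of 924971 with LPS and 711787 with vehicle. *Dcn* was at 177435 with LPS and 13840 with vehicle. Without *Dcn*, a choice made after seeing the data, the fibroblast sums were 747536 with LPS and 697947 with vehicle. Of 15 macrophage markers, 9 were lower and 6 higher, 3 at least 2-fold in each direction, with sums of 39548 with LPS and 30767 with vehicle. *Adgre1* was at 8803 with LPS and 64.4 with vehicle, and without it, a choice made after seeing the data, the sums were 30745 with LPS and 30703 with vehicle. Of 10 endothelial markers, 9 were above the floor, and the defining markers *Pecam1* and *Cdh5* were at 82.8 and 77.6 with LPS and 82.8 and 88.3 with vehicle, near the floor. The endothelial sums were 2865 with LPS and 1736 with vehicle, and *Kdr* was the 1 marker at least 2-fold higher. Without *Kdr* the sums were 890.0 with LPS and 1021 with vehicle, the opposite direction. No marker was listed at 0, but no row of either array was, the lowest values being 4.49 with LPS and 4.89 with vehicle. The absence of a 0 therefore does not show that a marker's transcript was present. The part of these markers' cells in the lower values of replication genes was not tested.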

How the data were processed

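Biotin-labelled targets were prepared from total RNA with the GeneChip WT PLUS Reagent Kit, per the labels' protocols. The deposited intensities were made by the authors with RMA in Affymetrix Expression Console 1.4.1, per the submitters' processing notes. The sources used here do not give the annotation version, the genome build or the arrays that entered RMA together. With 1 array for each group, the number of arrays limits the precision and no error can be given.

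Log2 was taken of the 68842 rows with no pseudocount or further normalization. The platform table gave 1 gene symbol for 23446 rows, more than 1 for 505 and no symbol for 44891. Entrez IDs matched RefSeq (GRCr8) for 22077 rows, which replaced 1 symbol. For a gene with several rows, the row with the highest mean log2 was used, and each of the 37 genes described had 1 row. The floor, 49.3, is the median and 236 the 75th percentile of row means. Counting was tested on simulated data (Python 3.11.15, statsmodels 0.14.6).

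The genes, lists and alternatives were chosen with earlier results of these data known. Named genes are the whole set, from each list up to 4 with the largest difference plus up to 2 of highest level (2 and 2 for marker lists), and partner subunits of complexes. Many genes that this rule picks, of pathway and marker lists alike, are not named. Other genes named were chosen after their values were seen. Promoters matched 32 of 38 genes. *Mcm4*, *Cdc6*, *Orc1*, *Rrm2*, *Ccne2* and *E2f1* were not matched. A planned comparison of MCM proteins was not run.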

Additional observations from a re-analysis of the deposited data

How the results depend on the processing

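Median centring, no floor and either rule for genes of several rows could not change the values of the 37 genes, since the median difference of all genes is 0, every gene is above the floor and each has 1 row. Once a loess trend against level was taken out (span 0.3, 0 robust iterations), 36 were still lower. *Gins2*, identical as deposited, stood at 0.0024 after the trend was removed. The number at least 2-fold lower, 9 as deposited, was 10 after the trend was removed and 7 with values under 236 raised. It was 26 at a size of 1.5-fold and 4 at 3-fold. With the floor at 236, 26 of the genes were left, 10 of them only through their vehicle value, which by construction favours lower genes. The medians were then -0.87 for the set, -1.26 for helicase genes and -0.84 for polymerase, clamp and fork genes. With low values raised, 26 genes were lower and the others equal, and the medians were -0.72 for helicase genes and -0.31 for polymerase, clamp and fork genes. The 6 genes whose own value moved by more than 0.42, the 84th percentile of absolute log2 differences, did so only in that setting: *Cdc6*, *Cdt1*, *Gins1*, *Gins3*, *Rfc3* and *Pole2*. The mean in place of the median gave -1.03 for nucleotide supply, where *Tk1* is 1 of 4 genes. A list median counted as moved when it shifted by more than 0.1 log2. The same alternatives, added for the other lists after the data were seen, turned no list median past 0.1 round, but several moved. With low values raised, the median of other helicase, licensing and firing genes went from -0.19 to -0.0049. That of fork chromatin genes went from -0.36 to -0.19, and that of checkpoint and repair genes from -0.30 to -0.059. With the floor at 236, it was -0.37 for other helicase, licensing and firing genes and -0.85 for checkpoint and repair genes. No paired analysis was possible because each group has 1 array.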

Other observations

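The measured replication genes with a promoter window can be set apart by the E2F letters. The 16 genes with such letters had a median log2 difference of -0.85 and ran from -1.89 to -0.52, with 5 at least 2-fold lower. The 15 without them had a median of -0.53 and ran from -2.05 to 0, with 3 at least 2-fold lower. Of all genes above the floor, 2.63% were at least 2-fold lower. The groups overlap over most of their range, and no test of the difference was run. Values lay under 236 on both arrays for *Cdt1*, *Gins1*, *Gins3* and *Pole2* with letters, and *Gins2*, *Orc6*, *Rfc5*, *Fen1* and *Pold1* without. The 6 genes with no window are in neither group. They were *Cdc6* at -1.65, *Ccne2* at -0.99, *Mcm4* at -0.86, *Rrm2* at -0.80, *E2f1* at -0.37 and *Orc1* at -0.32. Of 65 further replication genes with a window, 19 held E2F letters and 12 the CHR letters.

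Log2 differences of subunits within replication complexes were unequal as deposited. Besides the MCM ring, they spanned 0.97 in the GINS complex and 0.95 in polymerase epsilon. The upper end of each span is an identical value, *Gins2* and *Pole4*, which does not show that a transcript did not differ. With low values raised, *Gins1* to *Gins3* were equal on both arrays and *Gins4* was 1.06-fold lower. The 3 ribonucleotide reductase genes spanned 0.86, but *Rrm2b*, at 0.064, encodes the alternative to the *Rrm2* subunit, at -0.80. *Rrm1*, for the large subunit, was at -0.68. The 3 subunits of replication protein A, which coats single-stranded DNA, spanned 0.38, from -0.58 for *Rpa1* to -0.20 for *Rpa3*.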
